A study of Mus musculus with 5 samples.

Results

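The death receptor signalling genes examined here are Fas, Tnfrsf10b, Tnfrsf21, Casp8, Cflar and Ripk1, taken by name. Of these 6 genes, 5 had a row paired with their symbol alone among the 12267 genes measured, and Ripk1, the kinase that links death receptors to NF-kappaB activation and necroptosis, was not analysed here. The RNA came from CD4+ CD8- (CD4SP) thymocytes of C57BL/6J mice aged 4 to 6 weeks, sorted by flow cytometry and measured on Affymetrix mouse exon arrays. Cells of wild type mice were hybridised to 2 arrays and cells of PLZF transgenic mice to 3. PLZF, encoded by Zbtb16, is the zinc finger transcription factor that directs development of NKT cells and other innate-like T cells. Each sample is labelled a biological replicate and was made from pooled mice, so the arrays carry no spread between single animals. The sources used here do not name the promoter that drives the transgene, and the genotypes were not checked by the level of Zbtb16, which was not analysed here.

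Death receptors are members of the TNF receptor superfamily with an intracellular death domain. When ligand binds Fas or the TRAIL receptor Tnfrsf10b, the adaptor Fadd gathers the protease Casp8, which becomes active by pairing with a neighbouring copy of itself. Cflar encodes c-FLIP, a relative of Casp8 that joins the same complex and restrains it. In T cells this pathway limits the survival of activated and self-reactive cells, and Fas is also expressed by resting thymocytes.

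Casp8 and Cflar are direct neighbours among the protein-coding genes of mouse chromosome 1 in the GRCm38.p6 reference. Fas lies on chromosome 19, Tnfrsf10b on chromosome 14 and Tnfrsf21 on chromosome 17. Promoter windows of 300 bases, from 250 before to 50 after the gene start, were taken from RefSeq (GRCm38.p6) for 4 of the 5 measured genes. The windows of Cflar and Casp8 are shown because the genes are neighbours whose changes were alike in size, and that of Fas as a receptor that signals through Casp8. None of these 3 genes passed the test over all genes. Capitals mark every match, on either strand, to the letters GGGCGG (GC box), TATAAA (the core promoter element bound by TBP), TTCNNNGAA (an outline of the STAT element) and CANNTG (E box), and a run longer than its motif holds overlapping matches.
Cflar, chr1:58711241-58711540, plus strand: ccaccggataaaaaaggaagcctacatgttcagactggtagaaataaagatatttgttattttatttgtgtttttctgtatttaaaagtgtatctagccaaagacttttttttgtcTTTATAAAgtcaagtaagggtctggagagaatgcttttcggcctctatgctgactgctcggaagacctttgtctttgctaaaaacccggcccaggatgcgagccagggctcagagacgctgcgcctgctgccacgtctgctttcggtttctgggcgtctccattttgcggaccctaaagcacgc
Casp8, chr1:58802252-58802551, plus strand: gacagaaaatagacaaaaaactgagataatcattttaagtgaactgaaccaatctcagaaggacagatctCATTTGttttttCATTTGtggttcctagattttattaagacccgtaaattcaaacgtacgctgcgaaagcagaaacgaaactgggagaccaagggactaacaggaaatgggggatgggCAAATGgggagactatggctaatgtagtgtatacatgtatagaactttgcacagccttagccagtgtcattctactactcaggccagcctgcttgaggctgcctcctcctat
Fas, chr19:34290409-34290708, plus strand: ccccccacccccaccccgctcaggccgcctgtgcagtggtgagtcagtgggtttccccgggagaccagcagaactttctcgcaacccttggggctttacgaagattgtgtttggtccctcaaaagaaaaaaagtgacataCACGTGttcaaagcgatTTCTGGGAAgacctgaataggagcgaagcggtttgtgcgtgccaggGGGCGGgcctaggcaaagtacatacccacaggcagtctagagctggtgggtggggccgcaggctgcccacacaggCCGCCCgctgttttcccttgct
The windows of the neighbours shared no motif of the 4. That of Cflar held 2 overlapping matches to TATAAA, 1 on each strand, and that of Casp8 held 3 E boxes. The first of the Cflar matches began at base 117 of a window whose gene start follows base 250. The Fas window held 2 GC boxes, 1 match to TTCNNNGAA and 1 E box. The window of Tnfrsf21 held 1 GC box and 2 E boxes. Among 32851 mouse promoter windows of this length, 35.7% held GGGCGG, 13.6% TATAAA, 8.30% TTCNNNGAA and 72.3% CANNTG. The GC content was 45% for Cflar, 42% for Casp8, 59% for Fas and 53.7% for Tnfrsf21.

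In transgenic cells the 3 receptor genes had higher values and the protease and its inhibitor had lower values than in wild type cells, and no single member passed the test over all genes. Values are log2(intensity + 1) throughout, changes are transgenic minus wild type on that scale, and the threshold was a limma p of 0.05 after Benjamini-Hochberg adjustment over 12267 genes. Of the 5 members 0 passed, where 4.74% of all genes did. An unadjusted p under 0.05 was found for 3 (Tnfrsf10b, Cflar and Casp8) and for 16.8% of all genes. These 3 have 5 different values among the arrays. When the 4027 genes of that class were fitted alone, 1646 had an unadjusted limma p under 0.05. All transgenic arrays lay above both wild type arrays for 3 members and below both for 2. Genotypes were separated in this way for 27.7% of all genes, 12.6% upward and 15.1% downward, and for 53.1% of the 6197 genes with at least 4 different values among the 5 arrays, a class to which all 5 members belong. Identical values in several arrays of a gene were found for 67.2% of genes. The median absolute change was 0.16 over the 5 members, 0.05 over all genes and 0.12 over the genes with at least 4 different values. In bulk RNA a lower value from fewer cells of a type and one from less RNA per cell cannot be told apart.

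**Figure D1:**
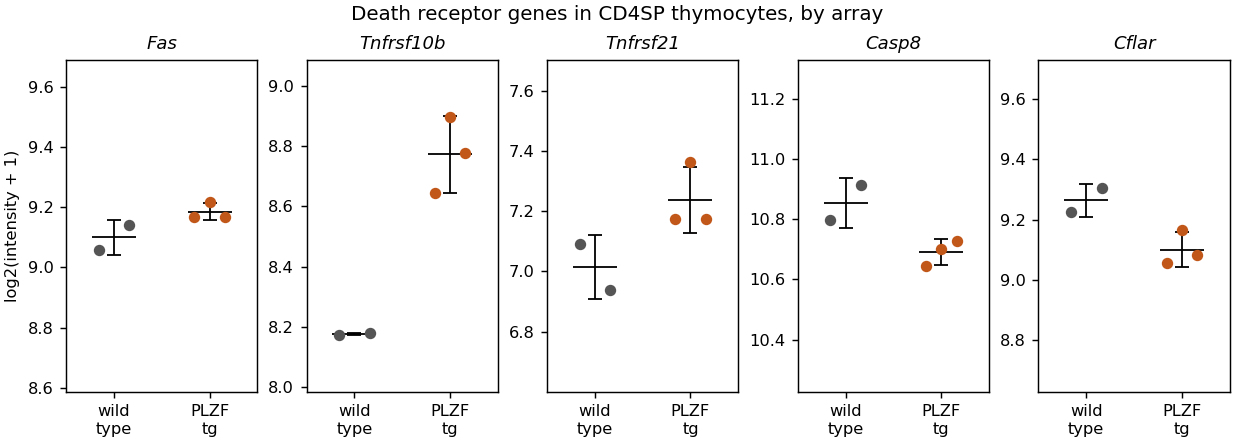
Log2(intensity + 1) of the 5 measured death receptor genes in each array, with the wild type arrays in grey, the PLZF transgenic (tg) arrays in orange, and the group mean ± SD as black bars; every vertical axis spans 1.1 log2 units and does not start at 0. Tnfrsf10b has the widest gap between genotypes, 0.46, and the other 4 genes have gaps between 0.03 and 0.08.

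Tnfrsf10b, the mouse receptor for the death ligand TRAIL, showed the largest difference of the members. Its log2 values were 8.17 and 8.18 in wild type and 8.64, 8.90 and 8.78 in transgenic cells. All 3 transgenic arrays were higher, and the gap between the genotypes, 0.46, exceeded the whole spread within either. The mean intensity was 288 in wild type and 438 in transgenic cells. The change was 0.60 ± 0.09 (SE), or 1.51-fold, with a 95% interval of 0.34 to 0.85 and a limma adjusted p of 0.0666. It was larger in size than that of 96.9% of all genes. The side of the threshold depended on the setting. The adjusted p was 0.0286 with median centring of the arrays, 0.0154 with cyclic loess, 0.0140 with quantile normalization, 0.0468 with dim genes left out and 0.0102 among genes with 5 different values, but 0.104 to 0.256 with any 1 array left out and 0.626 with array weights.

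Tnfrsf21, which encodes the death receptor DR6, had the second largest change of the members and a wider spread. Its log2 values were 7.09 and 6.94 in wild type and 7.17, 7.36 and 7.17 in transgenic cells, the first and last of these identical. Transgenic replicate 2 stood above the others, and the gap between the genotypes was 0.08, less than the difference between the wild type arrays. The change was 0.22 ± 0.09 (SE), with a 95% interval of -0.05 to 0.49 and a limma adjusted p of 0.408. It was 0.15 without wild type replicate 2 and 0.30 without wild type replicate 1.

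Fas itself differed least. Its log2 values were 9.06 and 9.14 in wild type and 9.17, 9.22 and 9.17 in transgenic cells, again with identical values in transgenic replicates 1 and 3. The genotypes did not overlap, but the gap was 0.03, under the difference between the wild type arrays. The change was 0.09 ± 0.03 (SE), or 1.06-fold, with a 95% interval of -0.02 to 0.19 (limma adjusted p = 0.389). That interval excludes a change in Fas above 0.19 in either direction at the unadjusted 95% level. The change was 0.04 without wild type replicate 1, and after quantile normalization it was 0.13 with a limma adjusted p of 0.0484.

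Casp8, the protease that starts the death signal, was lower in transgenic cells. Its log2 values were 10.80 and 10.91 in wild type and 10.64, 10.70 and 10.73 in transgenic cells. All transgenic arrays were lower, with a gap of 0.07. The change was -0.16 ± 0.05 (SE), or 1.12-fold lower, with a 95% interval of -0.31 to -0.02 (limma adjusted p = 0.249). It was -0.10 without wild type replicate 2.

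Cflar, the inhibitor, had a change of the same size. Its log2 values were 9.23 and 9.30 in wild type and 9.06, 9.17 and 9.08 in transgenic cells. Again all transgenic arrays were lower, with a gap of 0.06. The change was -0.16 ± 0.05 (SE), with a 95% interval of -0.30 to -0.02 (limma adjusted p = 0.229). A further row of the array, paired with both Cflar and the predicted gene Gm9845 and so not used for the gene, read 10.28 and 10.36 in wild type against 10.20, 10.17 and 10.17 in transgenic cells. Its change was -0.14 ± 0.04 (SE), in the same direction, with a limma adjusted p of 0.292 over all rows of the table.

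Since c-FLIP acts by pairing with Casp8, the shift of Cflar relative to Casp8 was compared between the genotypes. The difference of their log2 values shifted by -0.0012 from wild type to transgenic cells, against SDs over arrays of 0.03 and 0.06 (exact permutation test, two-sided, p = 1). The smallest p that 2 arrays against 3 allow is 0.1. The sign of a shift of this size turned with the setting, between -0.03 and 0.03. No change of Cflar relative to Casp8 beyond the spread of the arrays was detected.

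Genes around the Cflar and Casp8 pair on chromosome 1 had changes of both signs. Among the 10 protein-coding genes nearest the pair, 5 on each side, 8 were measured, and 4 had a higher mean in transgenic cells, 3 a lower mean and 1 the same mean. Named after their values were seen, Trak2, a kinesin adaptor for mitochondria (-0.12 ± 0.02, SE, limma adjusted p = 0.106), was lower and Nif3l1 higher (0.18 ± 0.04, 0.171), both without overlap between the genotypes. Neither passed the threshold.

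**Figure D2:**
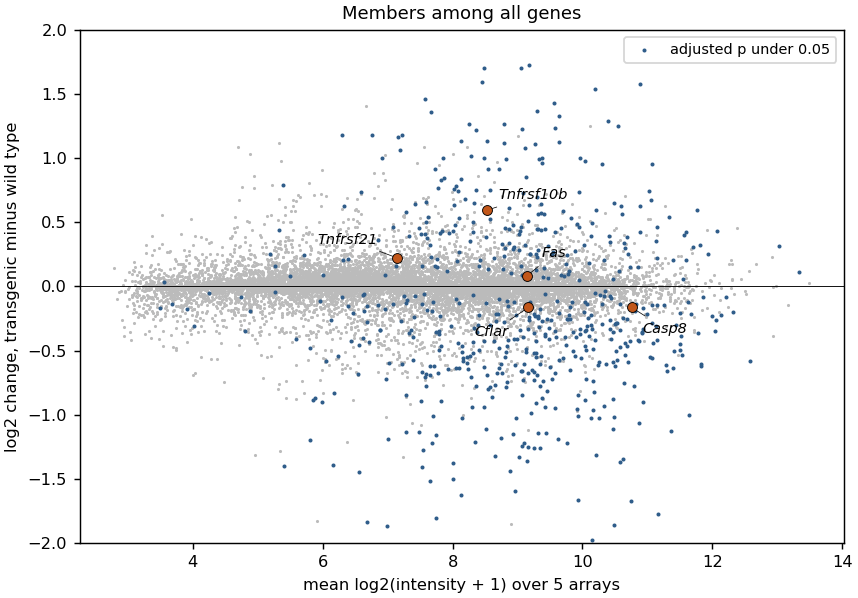
Change (transgenic minus wild type, log2) against the mean log2(intensity + 1) over 5 arrays for the genes measured, with the death receptor genes in orange and genes at a limma adjusted p under 0.05 in blue; 19 genes beyond 2 in either direction lie outside the axis. The change of Tnfrsf10b (0.60) was larger in size than that of 96.9% of all genes. For Tnfrsf21 this share was 85.7%, for Cflar 79.3%, for Casp8 79.1% and for Fas 62.7%.

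The other genes of the pathway were read from lists by role that hold 82 genes besides the members, of which 46 were measured. At the threshold over all genes, 3 were higher and 3 lower in transgenic cells, or 13.0% of those measured. Among all genes 1.72% were higher and 3.02% lower, shares that also count 1455 genes with equal values in all 5 arrays. The lists were chosen with earlier results of these data known, so the 13.0% gives no independent support. The median change of the 46 was 0, as over all genes. In the fits without transgenic replicate 1, 2 or 3 none of the 46 passed (limma), and 10, 9 and 11 had an unadjusted p under 0.05.

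Fasl showed the largest change of the pathway genes measured. Of 5 ligands measured, 2 passed the threshold, both higher in transgenic cells. Fasl, the ligand of Fas, was at 6.65 and 6.75 in wild type and at 7.94, 8.22 and 8.34 in transgenic cells, all far above the wild type arrays. It rose by 1.46 ± 0.15 (SE; limma adjusted p = 0.0347). Lta, which encodes the TNF receptor ligand lymphotoxin alpha, rose by 0.73 ± 0.05 (limma adjusted p = 0.0210). Named after their values were seen, Tnf had a change of 0.71 ± 0.11 (limma adjusted p = 0.0682) and Tnfsf10, which encodes TRAIL, the ligand of Tnfrsf10b, one of 0.17 ± 0.07 (0.456). The transgenic arrays lay above both wild type arrays for these 4 ligands, a separation found upward in 12.6% of all genes. All 4 have 5 different values among the arrays. Of genes with at least 4 different values, 53.1% were separated in either direction. For Tnfsf10 the gap was 0.04. The remaining ligand measured, App, had identical values in all 5 arrays.

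Neither of 2 further death domain receptors passed (limma, none with an unadjusted p under 0.05), and Edar, the ectodysplasin receptor, had the larger change, 0.04 ± 0.03 (SE). In both Edar and the other, Ngfr, a receptor for neurotrophins, 4 of the 5 values were identical and wild type replicate 2 alone differed. Neither of 2 receptors without a death domain passed, and 1, Tnfrsf12a, the receptor for TWEAK, had an unadjusted p under 0.05, with a change of -0.12 ± 0.03 (limma adjusted p = 0.150). Tnfrsf1a, the main death receptor for TNF, and Fadd were not analysed here.

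Of 9 adaptors and kinases of the receptor complexes, 1 passed the threshold, Daxx, which was lower in transgenic cells. The mean was higher in transgenic cells for 4 of the 9 and lower for 5. Named after its values were seen, Traf1 had the largest change of the 9, 0.42 ± 0.12 (SE; limma adjusted p = 0.213). Daxx, a histone chaperone first described as a partner of the Fas death domain, was at 10.21 and 10.30 in wild type and at 9.90, 9.96 and 9.88 in transgenic cells. Its change was -0.34 ± 0.04 (SE; limma adjusted p = 0.0490). Among 12 inhibitors and ubiquitin regulators, Tnip1, a partner of the NF-kappaB inhibitor A20, rose by 0.25 ± 0.03 (limma adjusted p = 0.0370), and Mapkapk2, a kinase that phosphorylates Ripk1, fell by 0.11 ± 0.01 (0.0224). Mapkapk2 was at 8.91 in both wild type arrays and between 8.79 and 8.81 in transgenic cells. Of 4 necroptosis genes, 1 passed, Ppm1b, a phosphatase that acts on Ripk3. Ppm1b fell by 0.49 ± 0.04 (limma adjusted p = 0.0270), from 9.42 ± 0.02 (SD, n = 2) to 8.93 ± 0.06 (SD, n = 3). The mean was higher in transgenic cells for 3 of the 4. Of these Ticam1, named after its values were seen, had a change of 0.45 ± 0.08 (SE; limma adjusted p = 0.0920).

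Caspases other than Casp8 and the genes of mitochondrial amplification and execution had no member past the threshold (limma; 0 of 3 and 0 of 9, each with 0 at an unadjusted p under 0.05). Casp14, an epidermal caspase, had the largest change of the caspases measured, -0.06 ± 0.04 (SE), and 4 of its 5 values were identical. Cycs, which encodes cytochrome c, had the largest change of the execution genes, 0.74 ± 0.42 (SE), with wild type values of 8.13 and 6.97. That spread of the wild type arrays exceeded the difference between the genotypes.

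**Figure D3:**
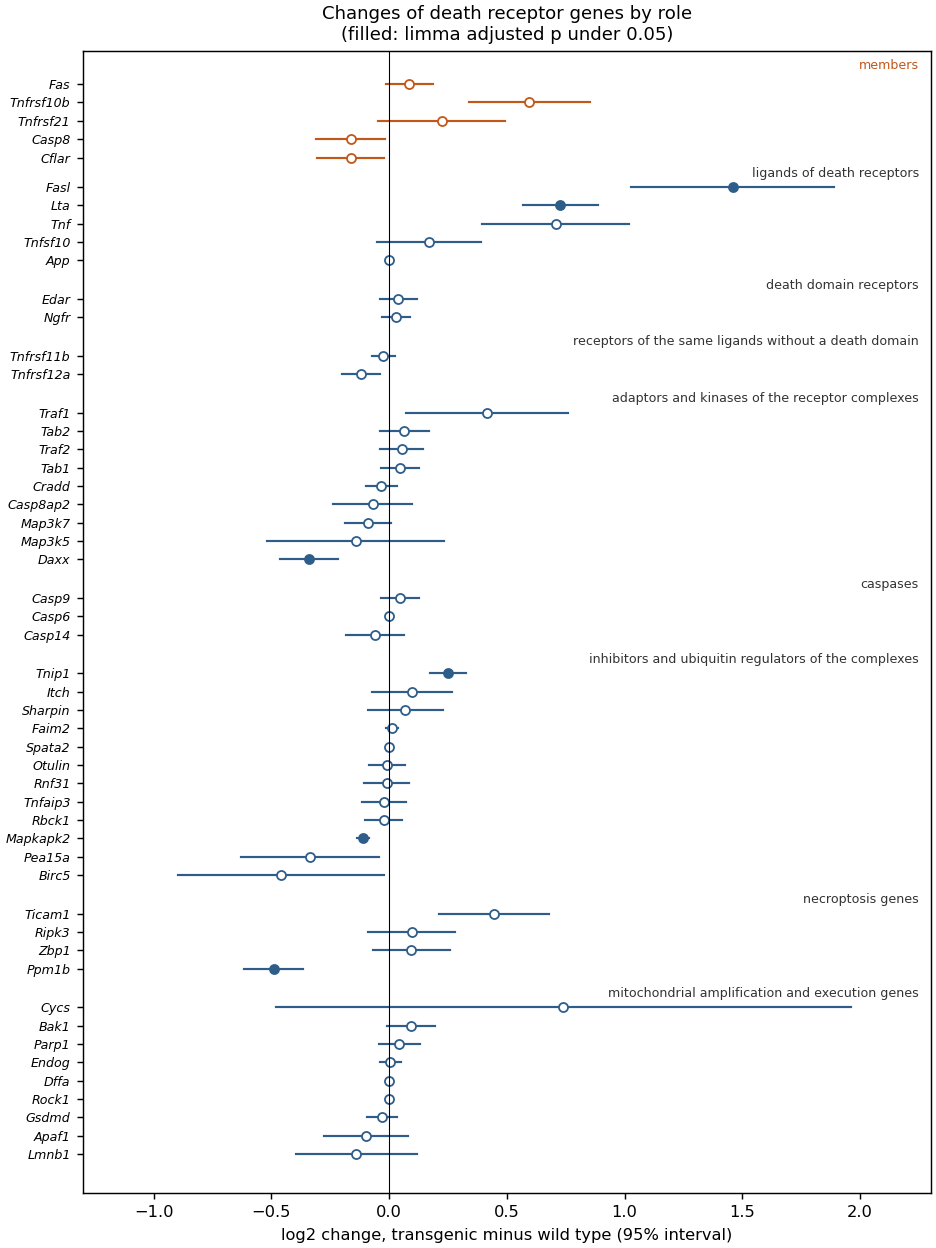
Change (transgenic minus wild type, log2) with its 95% interval, not adjusted for the number of genes, for the 5 measured members and 46 other pathway genes grouped by role; filled circles passed a limma adjusted p of 0.05. The filled circles are those of Fasl, Lta, Daxx, Tnip1, Mapkapk2 and Ppm1b, and no member is filled.

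Patterns over the 5 arrays were compared by the root mean square difference of gene-centred log2 values over 9945 protein-coding genes. The genes closest to Tnfrsf10b were Slc25a37, a mitochondrial iron importer, at 0.02, the glutaredoxin gene Glrx at 0.04 and the receptor gene Notch2 at 0.04. Their changes were 0.59 (limma adjusted p = 0.0481), 0.64 (0.0270) and 0.54 (0.0423). The genes closest to Tnfrsf21 were Marchf3 and Sco1, at 0.02 and 0.03, and Tbx21, which encodes the transcription factor T-bet, at 0.03. Their changes, from 0.21 to 0.23, had limma adjusted p values from 0.233 to 0.458. These genes were picked for likeness, so their changes add no support.

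The arrays were alike in brightness, with a median intensity between 59.0 and 60.3, and across genes the log2 values correlated at r = 0.996 within wild type, 0.998 within transgenic and 0.990 to 0.991 between genotypes. Of 18 markers of CD4SP T cells 9 were measured. At the threshold 4 of these were lower in transgenic cells and 0 higher, against 3.02% and 1.72% of all genes. Cd2 changed most (-1.11 ± 0.04, SE, limma adjusted p = 0.00955). The summed intensity of the 9 was 17333 to 17865 in wild type and 14703 to 14918 in transgenic cells. Cd4, Cd8a, Cd3d, Cd3e and Cd3g were not analysed here. The summed intensity of the 6 measured of 10 B cell markers was 380 to 404 in wild type and 385 to 411 in transgenic cells, and Fcrla changed most (-0.31). That of the 6 measured of 12 myeloid markers was 607 to 739 and 603 to 641 (Mpeg1, -0.67). That of the 5 measured of 9 CD8 and cytotoxic cell markers was 764 to 821 and 597 to 664 (Prf1, -1.02). That of the 8 measured of 10 epithelial and stromal markers was 1987 to 2068 and 1750 to 1777. Pecam1, which T cells also express, was the brightest of the 8 and changed most (-0.30, limma adjusted p = 0.0472). Its mean log2 value was 10.48 in wild type and 10.19 in transgenic cells. The summed intensity of the 5 measured of 14 markers of earlier thymocytes was 655 to 670 and 1135 to 1415. Il2ra, which activated T cells also express, changed most of these (2.13). Without Il2ra the sum of the other 4 was 461 to 488 in wild type and 451 to 489 in transgenic cells. The part of these differences in the values of the death receptor genes was not tested.

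**Figure D4:**
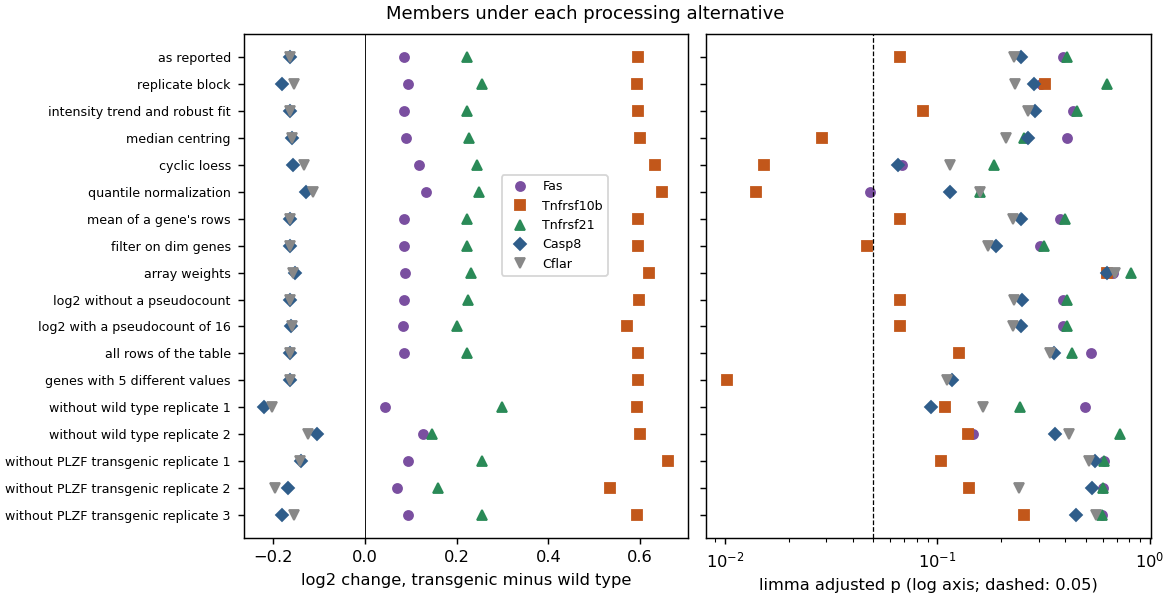
Change (left, transgenic minus wild type, log2) and limma adjusted p (right, log axis, dashed line at 0.05) of the 5 measured members as reported and under each processing alternative. Every change kept its sign under every alternative shown, Tnfrsf10b lies left of the dashed line in 5 alternatives and Fas in 1 (quantile normalization).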

How the data were processed

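The table deposited by the authors gives 1 linear intensity per row and array. Per the submitters' processing notes it was made with Affymetrix Expression Console, RMA and mm9, with versions not given in the sources used here. RMA normally includes quantile normalization of the arrays, so a shift common to most genes may not show. Log2(intensity + 1) was computed. Of 65529 rows, 14011 had 1 symbol in the platform annotation and 864 several. The single-symbol row with the highest mean was kept per gene, with no filter on level. All 5 members lay above the 25th percentile of gene means, the level used as the dim filter. Transgenic minus wild type was fitted with limma 3.58.1 in R 4.3.3, with 3 residual and 0.5 prior degrees of freedom, with Benjamini-Hochberg adjustment over the 12267 genes. Intervals are 95% intervals of that fit. Values equal after rounding to 5 decimals on the log2 scale were called identical. The number of arrays limits the precision, and the labels do not say whether samples shared a sort, so p values measure the spread between these samples.

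Members and lists were chosen with earlier results of these data known. Pathway genes were named where past the threshold, up to 4 per role, or else as the largest change of that role. Marker genes were named as the largest change of their list, and for the 2 members with the largest change the 3 genes of most similar pattern were named, among protein-coding genes other than predicted ones, and without olfactory and vomeronasal receptors. Gene order, symbols and promoters come from RefSeq (GRCm38.p6), a build other than mm9, so no array coordinates are printed. The procedure was tested on simulated data. These were drawn from normal distributions without identical values, so that test does not cover genes with identical values in several arrays. Alternatives were other scalings, filters, pseudocounts, variance models, rows and each array left out.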

Additional observations from a re-analysis of the deposited data

How the results depend on the processing

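Each member kept the sign of its change under all alternatives run. Without an array in turn the change ran from 0.53 to 0.66 for Tnfrsf10b, 0.15 to 0.30 for Tnfrsf21, 0.04 to 0.13 for Fas, -0.22 to -0.10 for Casp8 and -0.20 to -0.13 for Cflar, and 0 members passed in these 5 fits (limma; 1 or 2 had an unadjusted p under 0.05). Tnfrsf10b passed after scaling by median centring (0.60), by cyclic loess (0.63) or by quantiles (0.65), with the dim filter (0.60) and among genes with 5 different values (0.60). This left 1 member past the threshold in each of these settings, except 2 with quantile normalization, where Fas also passed (0.13). Fas and Tnfrsf21 are not among the genes with 5 different values. The cause of these differences was not tested. The shift of Cflar relative to Casp8 turned to 0.0234 with cyclic loess, 0.0147 with quantile normalization and 0.0016 with a pseudocount of 16, and ran from -0.0283 to 0.0269 without 1 array.

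Over all genes, 581 passed as reported, 1089 with cyclic loess, 1130 with quantile normalization, 1043 among genes with 5 different values, 202 over all rows, 1 with array weights, and 4 to 2890 without 1 array. Leaving out transgenic replicate 1, 2 or 3 gave 4, 45 or 10 genes. Leaving out wild type replicate 1 gave 2890 and replicate 2 gave 1852, with the spread of the remaining wild type array taken from the transgenic group. Of the 46 pathway genes, 6 passed as reported, 0 over all rows or with array weights (12 and 8 at an unadjusted p under 0.05), and 0 to 16 without 1 array. Genes with higher values made up 36.3% of the calls as reported, 46.6% with cyclic loess and 51.1% with quantile normalization. With the replicate number as a block, 0 genes and 0 pathway genes passed (limma; 1917 and 11 at an unadjusted p under 0.05), which leaves 1 residual degree of freedom, and Tnfrsf10b had a change of 0.59. Deviations of same-numbered arrays correlated at 0.139 for number 1 and 0.0485 for number 2. Those of wild type replicate 2 and transgenic replicate 3 correlated at 0.0915. The deviations of 2 wild type arrays mirror each other, so each value recurs with the opposite sign for the other wild type array. The labels do not say whether arrays of the same number shared a source, so whether they were paired is not known.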

Other observations

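The gene whose pattern over the arrays was closest to that of Tnfrsf10b, Slc25a37, lies on the same chromosome, 14, with 9 protein-coding genes of the GRCm38.p6 reference between them. Slc25a37 was at 9.85 in both wild type arrays and at 10.32, 10.53 and 10.47 in the transgenic arrays. In both genes transgenic replicate 1 was lowest and replicate 2 highest among the transgenic arrays. Slc25a37 was picked for its likeness to Tnfrsf10b over these same arrays, so the shared order adds no support. Of the 9 genes between them 4 were measured, and their changes lay near 0, with 0.01 ± 0.01 (SE) for Synb, -0.02 ± 0.03 for Entpd4, 0.05 ± 0.04 for Loxl2 and -0.0024 ± 0.02 for Chmp7, a subunit of the membrane-remodelling ESCRT machinery. On the other side of Tnfrsf10b, Rhobtb2 had a change of 0.08 ± 0.01 (limma adjusted p = 0.0673) and Egr3, a zinc finger factor induced by T cell receptor signals, one of -0.32 ± 0.13 (0.405). This relation of position was noticed after the values were seen and was not tested.

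Next to Tnfrsf21 on chromosome 17, Cd2ap, which encodes an adaptor that binds the cytoplasmic tail of CD2, fell by 0.26 ± 0.02 (SE; limma adjusted p = 0.0200), the reverse of the direction of Tnfrsf21. It was picked after the values of the neighbours of all 5 members were seen. Neighbours were looked for among 5 protein-coding genes on each side of a member. Of the 9 measured neighbours of Tnfrsf21, 1 passed the limma threshold, Cd2ap. The 23 measured neighbours of Fas, Casp8, Cflar and Tnfrsf10b leave out that set, and of them 0 passed and 4 had an unadjusted p under 0.05. Among all genes the shares were 4.74% and 16.8%.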
